A study of Homo sapiens with 4 samples.

Results

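The genes of cholesterol and fatty acid synthesis were followed in NTERA2 cells carrying a hairpin named sh60. They are a list of 31 gene symbols comprising the enzymes of the mevalonate pathway (7 genes), those that turn squalene precursors into cholesterol (11), the SREBP transcription factors with their regulators and a sterol carrier (5) and the enzymes of fatty acid synthesis, desaturation and phosphatidate handling (8). The members were taken by symbol, and all 31 were found among the 26364 genes listed and had enough counts to be tested.

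Messenger RNA was sequenced in 4 libraries, a pair labelled BEND3 LacZ that carries replicate numbers 1 and 3, and a pair labelled BEND3 sh60 that carries 1 and 2. Comparisons here take the LacZ pair for controls and the sh60 pair for cells with a hairpin aimed at BEND3, a chromatin-bound repressor, a reading that the labels leave implicit. All libraries came from the same line, grown in high-glucose medium with fetal bovine serum and antibiotics. There was 1 hairpin, with its time and means of delivery not given in the sources used here, and no second hairpin to set beside it. The labels do not state whether replicates were separate cultures, so p-values measure the spread between these libraries, which may be technical. The main test shares that spread over genes, so it is not each gene's own spread alone.

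Cells make cholesterol from acetyl-CoA by way of mevalonate, farnesyl diphosphate, squalene and lanosterol, and they make fatty acids from the same precursor by way of malonyl-CoA. Both pathways are switched on by the SREBP factors, which are held in the endoplasmic reticulum by SCAP and the INSIG proteins when sterols are plentiful and are released to the nucleus when sterols run low. SREBF2 is known mainly for sterol genes and SREBF1 for fatty acid genes, with overlap between the target sets. Dividing cells need both kinds of lipid for new membranes.

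Library totals lay between 30338285 and 44788461 counts, and 1 count was worth 0.0221 to 0.0333 CPM (counts scaled to the size of the library). The lowest count of any member in any library was 318, so counting error was small for all of them. BEND3 itself has a pseudogene row, BEND3P3, so its level is uncertain. It stood at 68.8 (replicate 1) and 79.3 CPM (replicate 3) in LacZ, against 55.7 and 52.0 CPM in sh60. This left BEND3 at 72.7% of the LacZ level (95% interval 63.0% to 83.9%). Its log2 fold change of -0.46 passed edgeR's test (adjusted p = 0.00168), but not in the fit that lacks LacZ replicate 3 (0.153). The label calls the line a lung carcinoma. All 6 lung epithelial markers stayed under 1 CPM in every library, SFTPB and SCGB1A1 had 0 counts, and the 7 embryonal carcinoma markers summed to 3769 to 3963 CPM. Among those 7, SOX2 rose to 1.24 times its LacZ level (edgeR adjusted p = 0.00841), LIN28B and TDGF1 fell to 73.4% and 71.3% (0.00147 and 0.000389), and POU5F1, LIN28A, DPPA4 and L1TD1 did not pass. In the fit without LacZ replicate 3 none of SOX2, LIN28B and TDGF1 passed (0.189, 0.0526 and 0.0571), nor SOX2 without LacZ replicate 1 (0.208). Markers of liver (4 genes) and fat cells (4 genes), whose tissues are rich in lipid synthesis, were also under 1 CPM throughout. Of the 4 blood markers PTPRC had 0 counts and only LAPTM5 passed 1 CPM. LAPTM5 fell from a mean of 8.61 to 3.29 CPM (log2 fold change -1.40, edgeR adjusted p = 1.08e-05) and was called under all 12 alternatives. The 7 fibroblast markers summed to 422 to 519 CPM in LacZ and 907 to 1070 CPM in sh60, with COL1A1, COL1A2 and LUM higher, THY1 lower and COL3A1, DCN and PDGFRB not passing. THY1 did not pass without either LacZ library (edgeR adjusted p = 0.125 without replicate 1 and 0.107 without replicate 3). The part of these marker shifts in the results below was not tested. In bulk RNA, fewer cells of a type and less RNA per cell cannot be told apart.

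The lipid synthesis genes were lower in sh60 as a group. Of the 31 members 17 fell and 0 rose by edgeR's quasi-likelihood test at an adjusted p of 0.05, beside 13.0% of all 16040 tested genes called lower, 15.8% called higher and 28.8% called in either direction. None was higher at an unadjusted p under 0.05 by edgeR, and 0 rose by DESeq2 or limma-voom. The fitted value was below 0 for 31 of 31 members, against 50.5% of all genes, and the median log2 fold change was -0.28, or 82.3% of the LacZ level, against -0.0042 over all genes. In 27 members both sh60 libraries lay below both LacZ libraries, which was true of 32.3% of all genes tested, and in 0 members both lay above, which was true of 32.1%. With trends on GC content and exon length removed, 25 members fell, beside 20.3% of all genes. The sizes were modest, from -0.013 for PMVK to -0.94 for LPIN1 on the log2 scale.

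**Figure D1:**
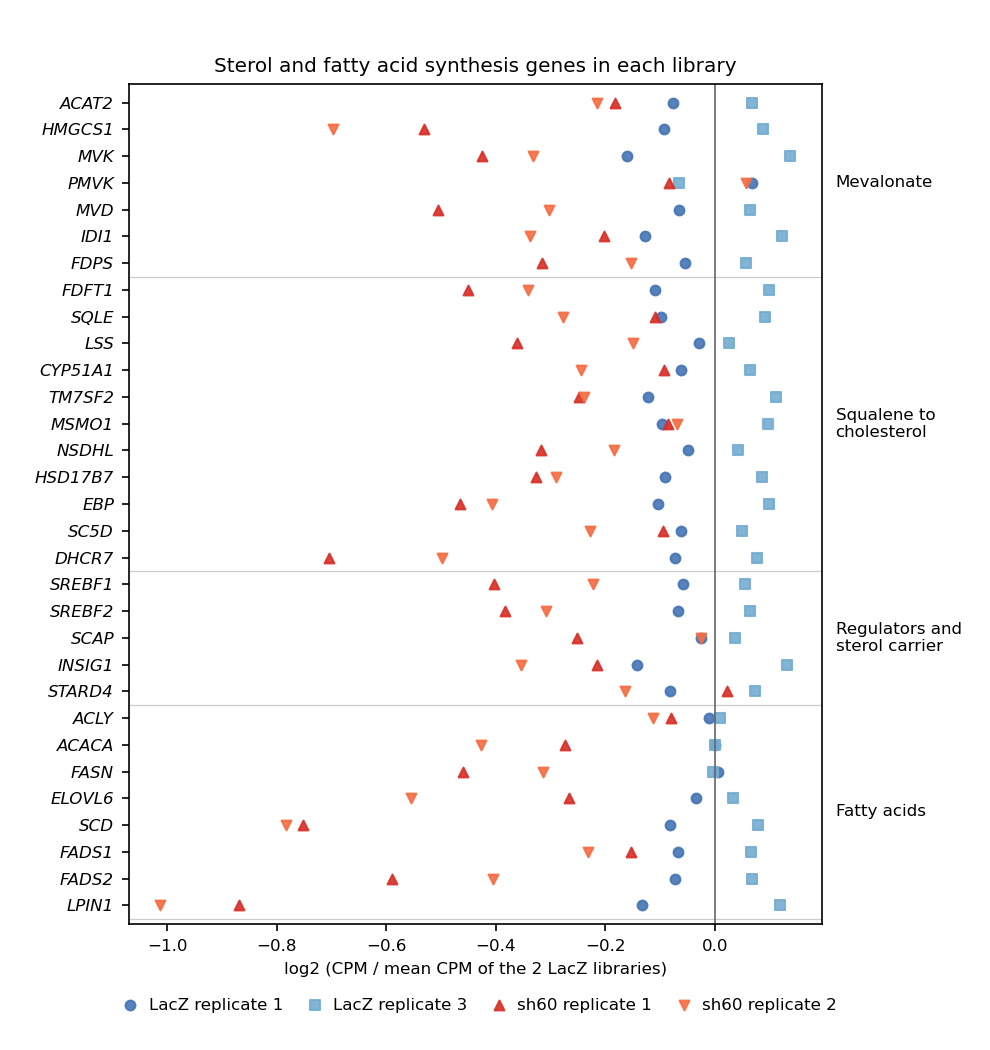
Level of each of the 31 genes in the 4 libraries, as the log2 of its CPM over the mean CPM of the LacZ pair, grouped by role in the pathway. Triangles (sh60) lie left of circles and squares (LacZ) in 27 of 31 genes, and LacZ replicate 1 lies left of LacZ replicate 3 in 29.

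The LacZ libraries were not alike for these genes. LacZ replicate 1 was below LacZ replicate 3 in 29 of 31 members (all but PMVK and FASN), against 50.7% of all genes. In 26 members the order was LacZ replicate 3 highest, LacZ replicate 1 next and both sh60 libraries lowest, an order seen in 20.6% of all genes. Among the 17 called members 16 had this order (94.1%), and among all genes called lower 66.2%. On the first principal component of log CPM over all genes, which held 76.0% of the variance, the sh60 pair scored 32.7 and 31.7, and the LacZ pair -38.9 (replicate 3) and -25.4 (replicate 1). The count of members called also changed when a control library was left out. Without LacZ replicate 3, 6 members fell (beside 5.77% of all genes), and without LacZ replicate 1, 11 fell (beside 7.20%). The median log2 fold change was -0.22 and -0.36 in these fits. Each leaves 1 control library, which is assumed to vary like the sh60 pair. In ACACA the log2 fold change was -0.35 and -0.34 in these fits and -0.35 with all libraries. Its SE was 0.16 in both, against 0.086 with all libraries. What part of the lost calls goes with the order of the LacZ libraries was not tested.

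**Figure D2:**
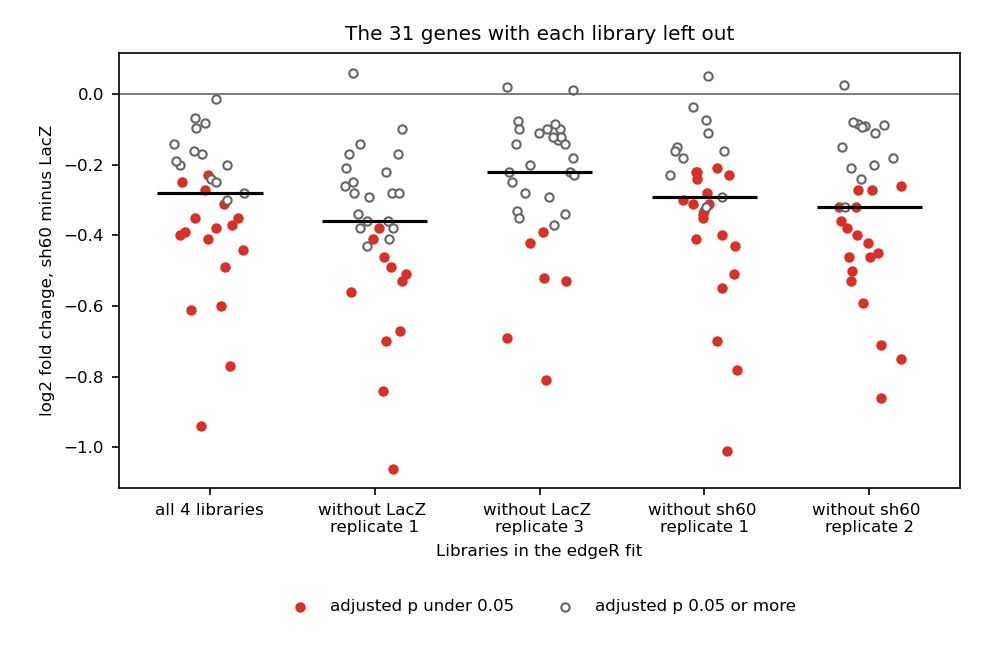
Log2 fold change of the 31 genes in edgeR fits with all libraries and with each library left out in turn. Each point is a gene, filled where its adjusted p is under 0.05, and bars are medians, which run from -0.36 to -0.22 over the fits with a library left out.

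The 6 genes called with all libraries and under each of the 12 alternatives were HMGCS1, DHCR7, FASN, SCD, FADS2 and LPIN1. They spread over both pathways, with an early condensation and the last reduction of cholesterol synthesis, and 4 genes of fatty acid and phosphatidate metabolism. Their values are given with their pathways.

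Promoters are shown for 4 members that fell, because genes that fell together can be read side by side for the short elements that SREBP-responsive promoters are known to carry. Sequences are the 250 bases before the RefSeq gene start (GRCh38.p14), 5′ to 3′ on the gene's strand. Capitals mark matches on either strand to TCACNCCAC (a form of the sterol regulatory element), CCAAT (the NF-Y box) or GGGCGG (the GC box bound by SP1 family factors). No 2 of these motifs overlap in the windows printed. SCD (chr10:100346983-100347232, + strand) and HMGCS1 (chr5:43313413-43313662, - strand, the upstream of 2 starts) were called under every alternative, EBP (chrX:48521558-48521807, + strand) holds 3 CCAAT boxes, and SREBF2 (chr22:41832855-41833104, + strand) holds the only TCACNCCAC match in the members' windows.
SCD: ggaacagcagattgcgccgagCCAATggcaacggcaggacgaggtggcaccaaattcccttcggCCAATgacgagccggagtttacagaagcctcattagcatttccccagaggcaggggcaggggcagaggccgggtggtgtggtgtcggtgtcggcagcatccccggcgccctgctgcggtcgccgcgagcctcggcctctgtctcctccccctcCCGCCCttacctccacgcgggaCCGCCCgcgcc
HMGCS1: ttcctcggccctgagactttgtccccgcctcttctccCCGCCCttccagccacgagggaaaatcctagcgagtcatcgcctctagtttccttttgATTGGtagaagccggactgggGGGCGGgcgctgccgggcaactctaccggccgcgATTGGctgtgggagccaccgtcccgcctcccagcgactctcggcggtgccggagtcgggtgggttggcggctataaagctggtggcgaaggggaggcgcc
EBP: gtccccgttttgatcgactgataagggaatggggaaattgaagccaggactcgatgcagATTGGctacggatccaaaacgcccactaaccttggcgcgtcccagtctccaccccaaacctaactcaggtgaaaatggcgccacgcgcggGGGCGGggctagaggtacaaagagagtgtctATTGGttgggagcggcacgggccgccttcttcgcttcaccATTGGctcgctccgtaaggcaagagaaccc
SREBF2: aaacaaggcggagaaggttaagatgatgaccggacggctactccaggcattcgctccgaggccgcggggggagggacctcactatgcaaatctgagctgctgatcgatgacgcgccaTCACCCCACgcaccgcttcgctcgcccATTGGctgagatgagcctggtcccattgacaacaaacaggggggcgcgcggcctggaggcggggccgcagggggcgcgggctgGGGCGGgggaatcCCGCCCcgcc

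The promoter table held 38 windows for 27 of the 31 members, with no entry for ACAT2, FDFT1, SQLE and FASN. Windows of the same gene can overlap, as in ACLY and SC5D, and a box in the overlap is counted in each. A CCAAT box lay in 23 of the 38 windows (60.5%), which belong to 19 members, against 32.0% of all 35116 windows and 32.2% of the windows of tested genes. A GC box lay in 33 (86.8%), against 42.6% of all windows and 60.9% of those of tested genes. TCACNCCAC lay in 1 window (2.63%), against 0.883% of all. In the 24 windows of members that fell, 13 held a CCAAT box and 20 a GC box. Neither box was more frequent there than over all 38 windows of members. In the HMGCS1 window printed the CCAAT boxes begin 155 and 100 bases before the start, and in SCD 229 and 186 bases before it. The window of the other HMGCS1 start held 0 CCAAT boxes. No window of FADS2 or LPIN1, which fell under every alternative, held a CCAAT box. These are matches of letters in a short window and say nothing of which factor binds there.

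In the mevalonate pathway 5 of 7 genes fell, beside 13.0% of all genes called lower, with a median log2 fold change of -0.27 over the 7. HMGCS1 (chromosome 5, 43287572 to 43313614 on hg19), which makes HMG-CoA from acetoacetyl-CoA, measured 187 and 212 CPM in LacZ and 138 and 123 CPM in sh60. Both sh60 libraries were well below both LacZ libraries, and the groups did not overlap. Its mean went from 199.5 ± 18.0 to 131 ± 11.2 CPM (SD, n = 2 each), a log2 fold change of -0.61 (SE 0.091, edgeR adjusted p = 6.3e-05), or 65.4% of LacZ (95% interval 57.3% to 74.7%). The next enzymes on the path act on mevalonate itself. MVK, the kinase that phosphorylates mevalonate first, measured 16.1 and 19.8 CPM in LacZ and 13.4 and 14.3 in sh60 (log2 fold change -0.37, edgeR adjusted p = 0.0354). MVD, the decarboxylase that yields isopentenyl diphosphate, measured 57.4 and 62.8 CPM in LacZ and 42.3 and 48.7 in sh60 (-0.40, edgeR adjusted p = 0.00611). Both kept their groups apart, with LacZ replicate 1 nearer to sh60 than LacZ replicate 3 was.

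IDI1 and FDPS carry isopentenyl diphosphate on to farnesyl diphosphate, and their falls were small. IDI1, the isomerase, measured 87.4 and 104 CPM in LacZ and 83.0 and 75.6 in sh60 (log2 fold change -0.27, edgeR adjusted p = 0.0495). FDPS, the prenyl synthase, measured 239.6 and 259 CPM in LacZ and 200 and 224 in sh60 (-0.23, edgeR adjusted p = 0.0474). In both the lowest LacZ library was only slightly above the highest sh60 library. Reads of FDPS can be shared with its pseudogene FDPSP2, which has a row of its own, so its level is uncertain. ACAT2, the thiolase that opens the pathway, had a value of -0.20 with groups apart and did not pass (edgeR adjusted p = 0.101). PMVK, the kinase that follows MVK, measured 25.9 and 23.6 CPM in LacZ and 23.3 and 25.7 CPM in sh60, and its interval ran from 84.6% to 116% of LacZ. PMVK sits between MVK and MVD in the pathway, and among the mevalonate genes it alone had overlapping groups. In the fit without LacZ replicate 3, MVK, MVD, IDI1 and FDPS did not pass (edgeR adjusted p = 0.499, 0.192, 0.679 and 0.534 in turn). IDI1 and FDPS also did not pass without LacZ replicate 1 (0.0912 and 0.202), IDI1 without sh60 replicate 2 (0.0914), MVK and FDPS without sh60 replicate 1 (0.0726 and 0.0534), and MVK, IDI1 and FDPS by DESeq2 (0.0673, 0.0613 and 0.0539). With library totals in edgeR, IDI1 and FDPS did not pass (0.0733 and 0.0779), and IDI1 also missed the threshold with size factors from DESeq2 (0.0519) and by limma-voom (0.0523). IDI1 was thus called in 5 of 12 alternatives and FDPS in 7.

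From squalene to cholesterol, 4 of 11 genes fell and 7 did not pass, beside 13.0% of all genes called lower. The median log2 fold change was -0.25. The 4 stand at the start of the branch (FDFT1, LSS) and near its end (EBP, DHCR7). DHCR7 (chromosome 11, 71145457 to 71159477 on hg19), the reductase that forms cholesterol from its last precursor, measured 139.8 and 155 CPM in LacZ and 90.2 and 104 CPM in sh60. The groups were far apart relative to the spread within them. The mean went from 147 ± 10.9 to 96.9 ± 9.52 CPM (SD, n = 2 each), a log2 fold change of -0.60 (SE 0.093, edgeR adjusted p = 8.59e-05), or 65.8% of LacZ (95% interval 57.4% to 75.3%).

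FDFT1, squalene synthase, commits farnesyl diphosphate to sterols and measured 328 and 379 CPM in LacZ and 259 and 279.5 in sh60 (log2 fold change -0.39, edgeR adjusted p = 0.00221). LSS, which folds oxidosqualene into lanosterol, measured 109.8 and 114 CPM in LacZ and 87.2 and 101 in sh60 (-0.25, edgeR adjusted p = 0.0447). EBP, a sterol isomerase, measured 64.8 and 74.5 CPM in LacZ and 50.4 and 52.5 in sh60 (-0.44, edgeR adjusted p = 0.00252). In all 3 the sh60 libraries were the lower pair, by the least margin in LSS. Without LacZ replicate 3 the adjusted p was 0.211 for FDFT1, 0.427 for LSS and 0.195 for EBP. LSS also missed the threshold without LacZ replicate 1 (0.253), without sh60 replicate 1 (0.0677), with library totals (0.071) and by DESeq2 (0.0514).

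The 7 others were SQLE (squalene epoxidase), CYP51A1 (the lanosterol demethylase), TM7SF2 (a sterol reductase), MSMO1 (the methylsterol oxidase), NSDHL and HSD17B7 (a dehydrogenase and a ketoreductase of sterol demethylation) and SC5D (a desaturase). Their log2 fold changes lay between -0.30 for HSD17B7 and -0.081 for MSMO1, with edgeR adjusted p from 0.0764 to 0.557. In 6 of them both sh60 libraries were below both LacZ libraries, which was true of 32.3% of all genes tested. In MSMO1 they were not, at 94.4 and 108 CPM in LacZ and 95.2 and 96.3 CPM in sh60. HSD17B7 has a pseudogene row, HSD17B7P2, so the level of HSD17B7 is uncertain. TM7SF2 shares 7 of its 1601 exon bases with VPS51 on the same strand, a small part of its length. These 7 enzymes interleave with the 4 that fell along the pathway. A difference between the called and uncalled genes was not tested.

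**Figure D3:**
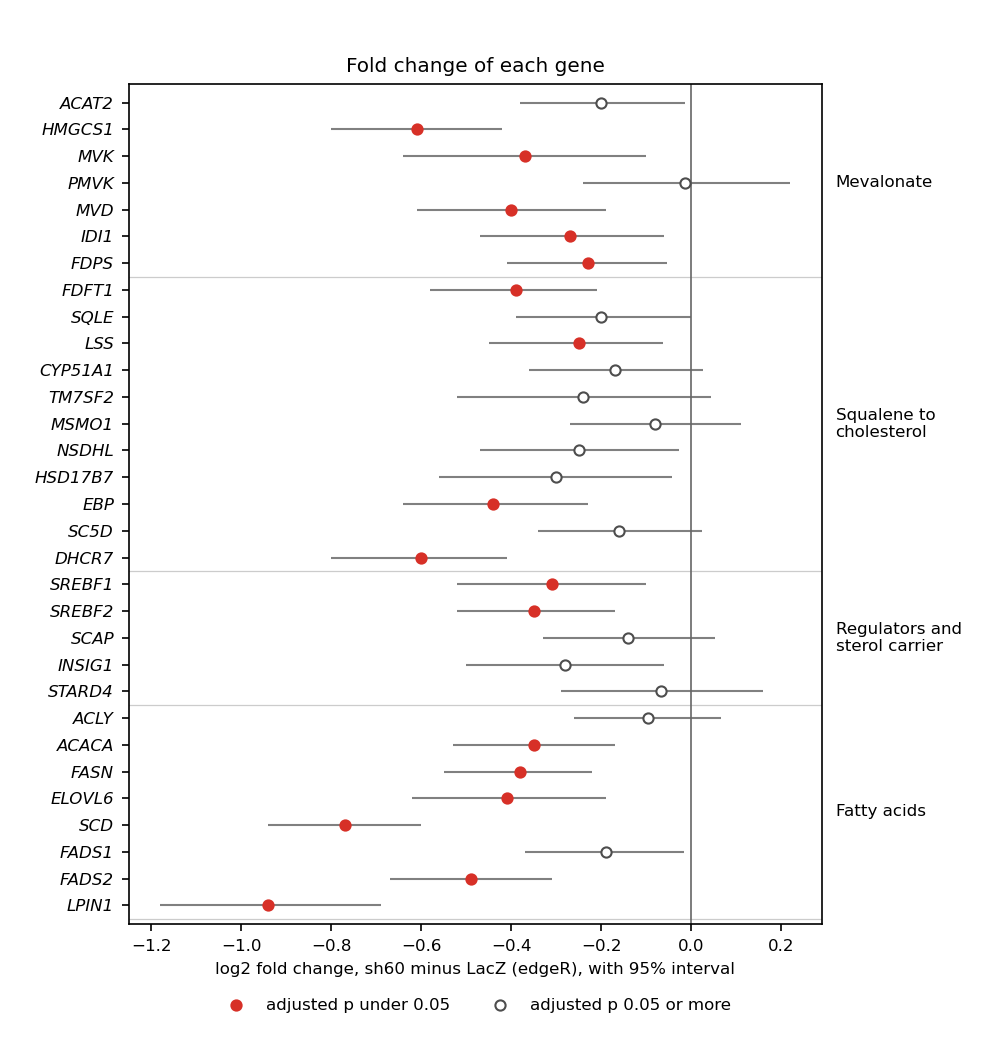
Log2 fold change (sh60 minus LacZ) of each gene by edgeR with its 95% interval, filled where the adjusted p is under 0.05. LPIN1 and SCD lie farthest left, at -0.94 and -0.77, and all 31 values are left of 0.

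Of the 5 genes for regulators and the sterol carrier 2 fell, both of them SREBP genes, beside 13.0% of all genes called lower. SREBF2 (chromosome 22, 42229083 to 42303312 on hg19), the factor known for sterol genes, measured 188 and 206 CPM in LacZ and 151 and 159 CPM in sh60, with the groups apart. The mean went from 197 ± 12.7 to 155 ± 5.32 CPM (SD, n = 2 each), a log2 fold change of -0.35 (SE 0.084, edgeR adjusted p = 0.00429). SREBF1 (chromosome 17, 17714663 to 17740325) measured 63.7 and 68.9 CPM in LacZ and 50.1 and 56.8 CPM in sh60. Its groups were apart too, and the mean went from 66.3 ± 3.71 to 53.4 ± 4.76 CPM (SD, n = 2 each; log2 fold change -0.31, SE 0.098, edgeR adjusted p = 0.0237). The counts do not separate the SREBF1 isoforms, which differ in their first exon. Per kilobase of exon SREBF2 was the higher of the pair, at 34.1 against 13.3 CPM per kilobase in LacZ.

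INSIG1, which retains SCAP and the SREBPs in the endoplasmic reticulum and is itself a well-known SREBP target, measured 56.7 and 68.6 CPM in LacZ and 53.9 and 49.0 CPM in sh60. The sh60 pair was lower, by less than the distance between the LacZ libraries, and its log2 fold change of -0.28 (SE 0.11) missed the threshold (edgeR adjusted p = 0.053). SCAP, the escort protein, measured 116 and 121 CPM in LacZ and 99.1 and 116 CPM in sh60. Its groups overlapped and its log2 fold change of -0.14 (SE 0.092) missed the threshold (edgeR adjusted p = 0.28), although it passed without sh60 replicate 2 (0.00653). STARD4, a cytosolic sterol carrier, was at 95.5% of LacZ (95% interval 81.6% to 112%), with overlapping groups. Without LacZ replicate 3 neither SREBF2 nor SREBF1 passed (edgeR adjusted p = 0.251 and 0.378), and SREBF1 did not pass without LacZ replicate 1 (0.125). INSIG1 passed without sh60 replicate 1 (adjusted p = 0.00446).

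The genes of fatty acid synthesis fell in 6 of 8 cases, beside 13.0% of all genes called lower, with a median log2 fold change of -0.40. In all 8 both sh60 libraries were below both LacZ libraries, which was true of 32.3% of all genes tested. SCD (chromosome 10, 102106772 to 102124588 on hg19), the desaturase that places the first double bond in stearoyl-CoA, measured 816 and 912 CPM in LacZ and 513 and 502 CPM in sh60. The sh60 libraries nearly coincided and lay far below both LacZ libraries. The mean went from 864 ± 67.8 to 507 ± 7.44 CPM (SD, n = 2 each), a log2 fold change of -0.77 (SE 0.080, edgeR adjusted p = 1.35e-06), or 58.7% of LacZ (95% interval 52.2% to 66.0%). LPIN1 (chromosome 2, 11817705 to 11967533), a phosphatidate phosphatase that makes diacylglycerol and also acts in the nucleus on lipid gene expression, measured 29.8 and 35.5 CPM in LacZ and 17.9 and 16.2 CPM in sh60. It had the largest fall among the 31, from 32.7 ± 4.01 to 17.0 ± 1.19 CPM (SD, n = 2 each), a log2 fold change of -0.94 (SE 0.12, edgeR adjusted p = 8.88e-06), or 52.2% of LacZ (95% interval 44.1% to 61.8%).

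FASN (chromosome 17, 80036214 to 80056106), the multienzyme that builds palmitate, measured 899 and 894 CPM in LacZ and 651 and 721 CPM in sh60. The LacZ libraries agreed closely here, and LacZ replicate 1 was the higher one. The mean went from 896 ± 3.45 to 686 ± 49.2 CPM (SD, n = 2 each), a log2 fold change of -0.38 (SE 0.079, edgeR adjusted p = 0.00118). FADS2 (chromosome 11, 61583675 to 61634826), the first desaturase of polyunsaturated fatty acid synthesis, measured 408 and 449.9 CPM in LacZ and 285 and 324 in sh60 (-0.49, SE 0.086, edgeR adjusted p = 0.000301). Both genes had groups that were clearly separate.

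ACACA, which makes the malonyl-CoA used by FASN, measured 156 CPM in both LacZ libraries and 129 and 116 CPM in sh60 (log2 fold change -0.35, edgeR adjusted p = 0.00511). ELOVL6, the elongase that takes palmitate to stearate, measured 69.4 and 72.7 CPM in LacZ and 59.1 and 48.4 in sh60 (-0.41, edgeR adjusted p = 0.00631). For both, the spread was wider between the sh60 libraries than between the LacZ libraries. ACLY, which supplies cytosolic acetyl-CoA to both pathways, was at 93.6% of LacZ (95% interval 83.6% to 105%) and did not pass. FADS1, the desaturase that acts after FADS2 and lies head to head with it, was at 87.6% of LacZ (edgeR adjusted p = 0.0943). The 2 genes share 142 exon bases on opposite strands, which the strand-specific counting keeps apart. ACACA and ELOVL6 did not pass in edgeR fits without LacZ replicate 3 (adjusted p = 0.136 and 0.13, log2 fold changes -0.35 and -0.37) or without LacZ replicate 1 (0.123 and 0.052, with -0.34 and -0.43).

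Per kilobase of exon the members spanned a wide range. In LacZ the highest levels were those of SCD (158 CPM per kilobase), FDPS (151), FADS2 (111) and FASN (106), and the lowest were those of LPIN1 (5.05), STARD4 (5.81) and TM7SF2 (6.94). SCD went to 92.8 and FDPS to 129 CPM per kilobase in sh60, so that the mean of FDPS, just under SCD in LacZ, was above it in sh60. Large falls were found at both ends of this range, in SCD and in LPIN1.

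Genes that act on the SREBPs after they are made were read from a list outside the 31. Of its 9 genes 2 rose, 0 fell and 7 did not pass, beside 15.8% of all genes called higher and 13.0% called lower, with a median log2 fold change of 0.076. The count of risers is near the share over all genes. MBTPS2, the protease that makes the second of the cuts that free the SREBPs, measured 58.7 and 54.8 CPM in LacZ and 82.8 and 74.5 in sh60 (log2 fold change 0.47, SE 0.095, edgeR adjusted p = 0.00108). INSIG2, the relative of INSIG1, measured 7.74 and 7.75 CPM in LacZ and 10.6 and 11.1 in sh60 (0.48, SE 0.13, edgeR adjusted p = 0.0103). In both the sh60 libraries were the higher pair. INSIG1 and INSIG2 thus had values of opposite sign, and a difference between them was not tested. MBTPS2 was not called without LacZ replicate 3 (adjusted p = 0.0797), nor INSIG2 without LacZ replicate 3 or LacZ replicate 1 (0.0672 and 0.063).

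Genes of sterol efflux and the LXR receptors, which sense oxysterols and oppose cholesterol loading, rose in 4 of 9 cases and fell in 0 (15.8% and 13.0% over all genes), with a median log2 fold change of 0.32. NR1H2, which encodes LXR beta, measured 17.5 and 19.5 CPM in LacZ and 27.0 and 33.4 in sh60 (log2 fold change 0.71, SE 0.12, edgeR adjusted p = 0.00022). ABCA3, a lipid transporter, measured 6.10 and 6.25 CPM in LacZ and 8.99 and 12.5 in sh60 (0.81, SE 0.16, edgeR adjusted p = 0.000916). ABCA1, the exporter of cholesterol to apolipoproteins and an LXR target, measured 30.9 and 30.7 CPM in LacZ and 45.6 and 39.9 in sh60 (0.47, SE 0.10, edgeR adjusted p = 0.00201). The groups were apart in all 3, and of these calls that of ABCA1 did not stand without LacZ replicate 3 (adjusted p = 0.0514). The fourth was MYLIP, a ubiquitin ligase for lipoprotein receptors (0.32, edgeR adjusted p = 0.0434), which did not pass without LacZ replicate 1 (0.206), LacZ replicate 3 (0.253) or sh60 replicate 2 (0.139) or by DESeq2 (0.0852) and was called in 7 of 12 alternatives. The sister receptor NR1H3 and the exporter ABCG1 did not pass, with values of -0.26 and -0.25.

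Genes of sterol transport and esterification were called at about the shares over all genes (15.8% higher and 13.0% lower), with 4 of 18 higher and 2 lower. VLDLR, a lipoprotein receptor, measured 25.0 and 25.4 CPM in LacZ and 45.6 and 43.5 in sh60 (log2 fold change 0.82, SE 0.10, edgeR adjusted p = 6.99e-06). OSBPL10 and OSBPL2, which belong to a family of lipid-transfer proteins, also rose (0.57 and 0.35, edgeR adjusted p = 0.001 and 0.0177). Neither OSBPL10 nor OSBPL2 passed without LacZ replicate 3 (0.108 and 0.22), nor OSBPL2 without LacZ replicate 1 (0.132). The remaining riser was GRAMD1B, a sterol transfer protein (0.38, edgeR adjusted p = 0.0209), and the 2 that fell were STARD3, an endosomal sterol-binding protein (-0.35, 0.0229), and LRP8, a lipoprotein receptor family member (-0.28, 0.0225). Without LacZ replicate 1 their adjusted p was 0.326, 0.0675 and 0.179 in turn. STARD3 and LRP8 also missed the threshold without LacZ replicate 3 (0.334 and 0.389), GRAMD1B without sh60 replicate 2 (0.0604) and STARD3 without sh60 replicate 1 (0.0503).

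**Figure D4:**
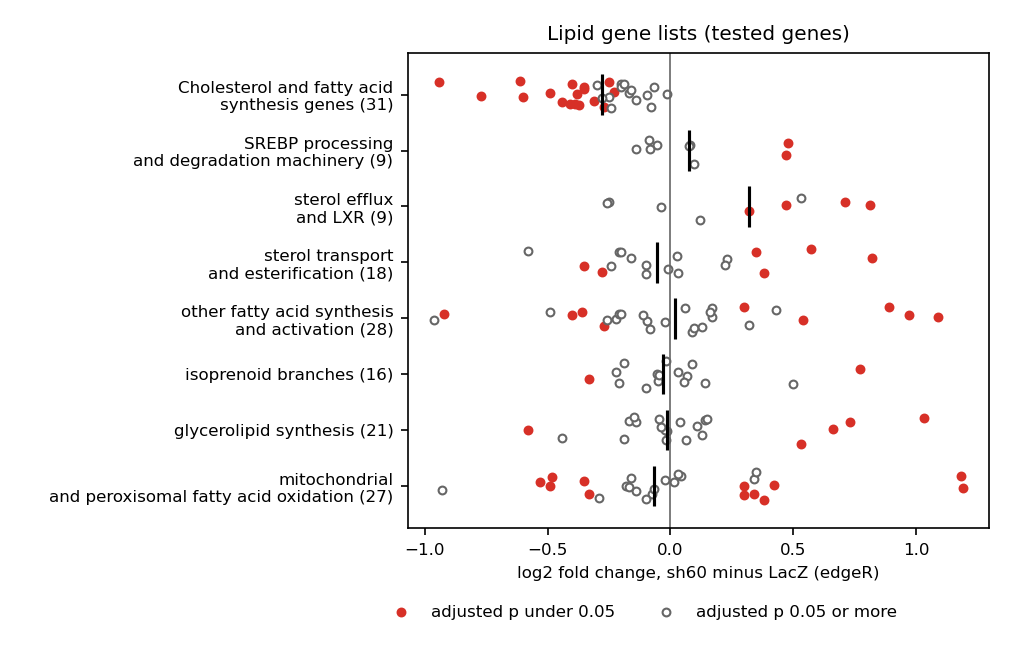
Log2 fold change (sh60 minus LacZ) of every tested gene of the cholesterol and fatty acid synthesis list and of 7 other lipid lists, with the number tested in brackets, filled where the adjusted p is under 0.05. Bars are medians, -0.28 for the synthesis genes and between -0.067 and 0.32 for the other lists.

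Several members have relatives that catalyse a like reaction, and some of these had values of the opposite sign. In a list of other fatty acid synthesis and activation genes, 5 of 28 tested rose and 4 fell, close to the 15.8% and 13.0% over all genes, with a median log2 fold change of 0.018. Its genes are therefore described one by one. SCD5, the other human stearoyl-CoA desaturase, measured 5.86 and 5.96 CPM in LacZ and 10.7 and 12.4 CPM in sh60, or 1.96 times the LacZ level (edgeR log2 fold change 0.97, SE 0.14, adjusted p = 5.26e-05). SCD, which moved the other way, ran from 502 to 912 CPM over the libraries. ELOVL7, an elongase, went from a mean of 2.23 CPM to 4.75 CPM, 2.13 times as much (edgeR adjusted p = 0.000453). HACD1, a dehydratase of the elongation cycle, went from 11.1 CPM to 20.6 CPM, 1.85 times as much (edgeR adjusted p = 3.75e-05). All 3 were called with any library left out.

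Other relatives and neighbours in the pathway were picked out after their values were seen. ELOVL1 rose to 1.46 times its LacZ level, FADS3 to 1.23 times and LPIN3 to 1.58 times (edgeR adjusted p = 0.00107, 0.0432 and 0.00655), while ELOVL6, FADS2 and LPIN1 fell. ELOVL5 fell with ELOVL6 (-0.27, edgeR adjusted p = 0.0318). So did TECR, the last enzyme of the elongation cycle (-0.40, edgeR adjusted p = 0.00569), SLC25A1, the citrate carrier that feeds ACLY (-0.36, 0.0148), and MLXIPL, a carbohydrate-responsive factor with 1.24 CPM in LacZ (-0.92, 0.0317). LPIN2 and ACACB did not pass, with values of -0.04 and -0.22. Each of these calls hung on single libraries. TECR, SLC25A1 and MLXIPL did not pass without LacZ replicate 3 (0.134, 0.267 and 0.132). SLC25A1 did not pass without LacZ replicate 1 (0.0577), nor MLXIPL without LacZ replicate 1 (0.0778), sh60 replicate 1 (0.149) or sh60 replicate 2 (0.0602) or by DESeq2 (0.182). ELOVL1 was lost without LacZ replicate 3 (adjusted p = 0.115), LPIN3 without sh60 replicate 2 (0.118), ELOVL5 without either LacZ library (0.269 without replicate 1 and 0.329 without replicate 3), and FADS3 without LacZ replicate 1 (0.252), LacZ replicate 3 (0.259) or sh60 replicate 2 (0.143) and by DESeq2 (0.0702), with calls in 7 of 12 alternatives. No difference between relatives was tested.

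**Figure D5:**
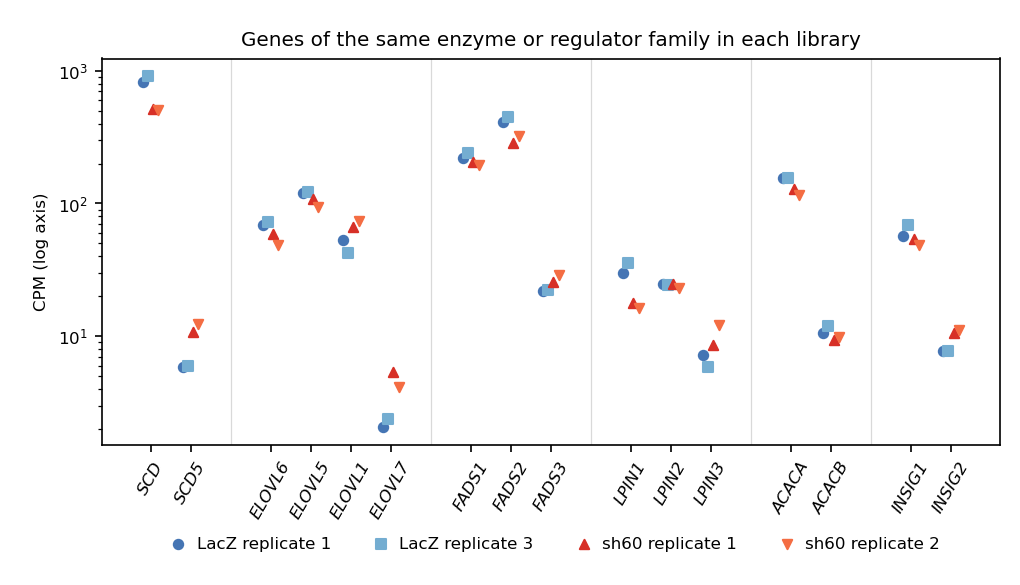
CPM on a log axis of members and their relatives in each library, by family. SCD falls from 864 to 507 CPM on average as SCD5 goes from 5.91 to 11.5 CPM, and LPIN1 falls from 32.7 to 17.0 CPM as LPIN3 goes from 6.54 to 10.3 CPM.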

How the data were processed

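Messenger RNA libraries of the NTERA2 line were analysed from deposited counts, whole numbers of reads per gene that were not normalized. The submitters' processing notes name STAR 2.7.6a and hg19 (GRCh37). Reads were counted over exons with featureCounts of Subread 2.0.0 at strand setting 2, per the file headers. The command carries no option for reads that map to several places, so members with near-identical copies are uncertain.

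Groups and replicate numbers came from the library titles. The test was edgeR 4.0.16 in R 4.3.3 (quasi-likelihood, TMM scaling, group as the only term, filterByExpr), over 16040 genes, with Benjamini-Hochberg adjustment over all of them and a threshold of 0.05. The script was tested on simulated data. CPM uses TMM-scaled library sizes. SEs and 95% intervals come from the quasi-likelihood F. Each gene's spread is drawn toward that of all genes (prior degrees of freedom 15.9, against 2 residual). Neither pair looked like repeat deposits of 1 library (chi-square over degrees of freedom 5.89 in LacZ and 15.8 in sh60).

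The members, the other lipid lists and the marker lists were chosen with earlier results of these data known. Values per library are given for members that passed with groups apart and for SREBF1, SREBF2, SCAP and INSIG1, and up to 3 genes with the smallest p are named from other lists, besides genes behind small counts and relatives of members, which were chosen after their values were seen. Other settings were edgeR with library totals, with upper-quartile scaling or with size factors from DESeq2, limma-voom (limma 3.58.1), DESeq2 1.42.0, no count filter, a filter of 1 CPM in 2 libraries, removal of lowess trends on GC content (GENCODE transcripts matched by symbol, 94.2% of tested genes) and exon length, and each library left out. Promoters are RefSeq sequences on GRCh38.p14. Gene coordinates are hg19 as deposited.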

Additional observations from a re-analysis of the deposited data

How the results depend on the processing

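The count of lipid synthesis genes that were lower ran from 13 by DESeq2 to 25 with GC and length trends removed over the settings that kept all libraries. The share of all genes called lower was 11.2% by DESeq2 and 20.3% with these trends removed. No member was higher in any of the 12 alternatives. Leaving out each library gave 6 to 20 lower members, with a median log2 fold change from -0.36 to -0.22. Over all genes these fits called 2287 to 5486 genes, 1331 to 2789 higher and 956 to 2697 lower. The sign was below 0 under every setting for 28 of 31 members. PMVK turned to 0.014 with library totals, 0.029 with GC and length trends removed, 0.061 without LacZ replicate 1 and 0.052 without sh60 replicate 1, MSMO1 to 0.021 without LacZ replicate 3, and STARD4 to 0.012 without LacZ replicate 3 and 0.027 without sh60 replicate 2, none of them called. With each library left out they ran from -0.084 to 0.061, -0.17 to 0.021 and -0.16 to 0.027. The cause was not tested. Calls of 11 members were lost without LacZ replicate 3 and of 6 without LacZ replicate 1. With GC and length trends removed, 8 more members were called, and 0 lost their call. Depth did not limit these genes, whose precision rests on 2 libraries a group and on spread shared over genes. No paired analysis was possible because the groups share only replicate number 1.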

Other observations

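Lists of lipid genes that neither make cholesterol nor build fatty acids held calls in both directions, beside 15.8% of all genes called higher and 13.0% called lower. Of 27 fatty acid oxidation genes 7 were higher and 5 lower by edgeR, with a median log2 fold change of -0.067. HADH, a dehydrogenase of the mitochondrial cycle, went from 57.4 ± 0.642 to 39.6 ± 1.79 CPM (SD, n = 2 each; edgeR adjusted p = 0.000383). ACADL, an acyl-CoA dehydrogenase, rose 2.27-fold from 1.44 CPM, and PPARA, a nuclear receptor that drives oxidation genes, 2.29-fold from 1.17 CPM (edgeR adjusted p = 0.000677 and 0.000697). Of 21 glycerolipid synthesis genes 4 were higher, near the share over all genes, and 1 was lower. CDS1, which makes CDP-diacylglycerol, rose 2.04-fold to 15.4 CPM, AGPAT3, an acyltransferase, 1.66-fold to 37.9 CPM and PCYT1A, of phosphatidylcholine synthesis, 1.44-fold to 23.6 CPM (edgeR adjusted p = 9.08e-06, 7.23e-05 and 0.00164). HADH, ACADL, PPARA, CDS1, AGPAT3 and PCYT1A were called under all 12 alternatives. CPT1A and CPT2, the carnitine transferases that admit fatty acids to mitochondria, were among the 5 lower oxidation genes with HADH, ACAA2 and HSD17B4, at -0.49 and -0.48 (edgeR adjusted p = 0.00446 and 0.000761). CPT1A did not pass without LacZ replicate 3 (0.0768), nor did ACAA2 and HSD17B4 without LacZ replicate 3 (0.141 and 0.206) or LacZ replicate 1 (0.226 and 0.0606). LPIN3 was the fourth higher glycerolipid gene, and DGAT2, which makes triglyceride, the lower one (-0.58, edgeR adjusted p = 0.0292, but 0.193 when LacZ replicate 3 was left out, 0.0513 and 0.112 when sh60 replicates 1 and 2 were, and 0.127 by DESeq2).

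Of 16 tested isoprenoid genes, which include branches that leave the pathway at farnesyl diphosphate, 1 rose, 1 fell and 14 did not pass, beside 28.8% of all genes called in either direction. DHDDS, a subunit of the enzyme that makes dolichol precursors, rose 1.71-fold from 34.3 ± 0.359 to 58.5 ± 3.27 CPM (SD, n = 2 each; edgeR adjusted p = 1.08e-05), while its partner subunit NUS1 did not pass (adjusted p = 0.716). PDSS1, of coenzyme Q synthesis, fell from 31.2 to 24.8 CPM (edgeR adjusted p = 0.0222), a call lost without LacZ replicate 3 (0.322) and without LacZ replicate 1 (0.101).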
